A study of Mus musculus with 2 samples.

Results

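Messenger RNA of 48 genes for the urea cycle and for the making and breaking down of amino acids was examined in the liver of mouse embryos at embryonic day 12.5. The genes were taken from a list of names, and they are 48 of 43346 mouse gene identifiers, or of 21474 protein-coding genes, in the deposited tables. Total RNA was sequenced in 2 libraries that form 1 group, so the study has no treated or control samples. The livers of 120 embryos were pooled for replicate 1, and those of 88 other embryos for replicate 2. The labels name no mutation, transgene or treatment. Both pools were of strain B6NCrl, and both mixed the sexes. Because embryos were pooled, variation between embryos is not seen, and the spread between the libraries is the spread between pools only. Levels are given as TPM, a unit that scales reads by transcript length and by the total of the library, so that levels of different genes can be set side by side. Where a level is given as a pair of values without names, the values are those of replicate 1 and replicate 2. A read here is an expected count rounded to a whole number.

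Amino acids that are not used for protein lose their nitrogen as ammonia, which the adult liver turns into urea. The cycle starts in mitochondria, where carbamoyl phosphate is made from ammonia and joined to ornithine, and ends in the cytosol, where arginine is split into urea and ornithine. The same organ breaks down tyrosine, tryptophan, histidine, serine, glycine and methionine, steps for which hepatocytes are the chief site in adult mammals. Growing cells also make serine, glycine, asparagine and proline, and these pathways supply one-carbon units, nucleotide synthesis and protein. In the embryo the liver is at the same time a site of blood formation, and its hepatoblasts are not yet adult hepatocytes.

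Both libraries held markers of the labelled organ and of the blood cells in it. All 8 hepatoblast markers were at 1 TPM or more, led by Afp, alpha-fetoprotein, at 5312 and 5136 TPM and by Apoa1, a lipoprotein, at 1253 and 1262 TPM. All 6 erythroid markers were too, led by the globin genes Hbb-bt and Hba-a1, and the 8 globin genes took 25.6% and 26.2% of all TPM. The granulocyte markers summed to 466 TPM in replicate 1, against 519 TPM in replicate 2, led by S100a8 and Mpo. The megakaryocyte markers summed to 781 and 679 TPM, led by Pf4 and Itga2b, and the macrophage markers to 61.6 and 59.6 TPM, led by C1qa and Csf1r. The endothelial markers, led by Stab2 and Kdr, summed to 61.0 and 56.9 TPM, and the stellate and mesenchymal markers, led by Col1a1 and Pdgfrb, to 139 and 155 TPM. Of 6 markers of gut and kidney, where several of the enzymes are also made, 1 reached 1 TPM in both libraries, Lgals4 at 3.18 and 2.32 TPM, followed by Vil1 at 0.70 and 0.81 TPM, and both Umod and Slc34a1 were listed at 0. Over protein-coding transcripts alone, Lgals4 had 1.57 and 1.10 TPM, Stab2 6.63 and 6.31 TPM and Itga2b 46.1 and 40.9 TPM. In bulk tissue, fewer cells of a type and less RNA per cell cannot be told apart, and which cells carried each enzyme's RNA was not tested.

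Most of the amino acid genes were present, over a range from 0 to 385 TPM. A total of 42 of the 48 were at 1 TPM or more in both libraries, against 54.5% of all protein-coding genes. At 10 TPM or more there were 30 of 48, against 31.8%, and at 100 TPM or more 8 of 48, against 5.39%. Their median level was 22.2 TPM in replicate 1 and 21.3 TPM in replicate 2, beside 2.00 and 2.03 TPM over all protein-coding genes, and 14.2 TPM in either library over the 11696 protein-coding genes at 1 TPM or more. Together the 48 genes held 2667 and 2568 TPM, which is 0.267% and 0.257% of the total. The 8 leading genes, Asns, Phgdh, Mat2a, Got2, Psat1, Shmt2, Glud1 and Pcbd1, took 62.6% and 62.5% of that sum. The 6 genes below 1 TPM were Cps1, Arg2, Tat, Tdo2, Sds and Mat1a. With the genes ordered by mean level, 20 of the 47 neighbouring pairs had overlapping values in the libraries, among them Gcsh and Psph, Ahcy and Shmt1, and every pair from Tdo2 down to Arg2, so the order within those pairs is not resolved.

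**Figure D1:**
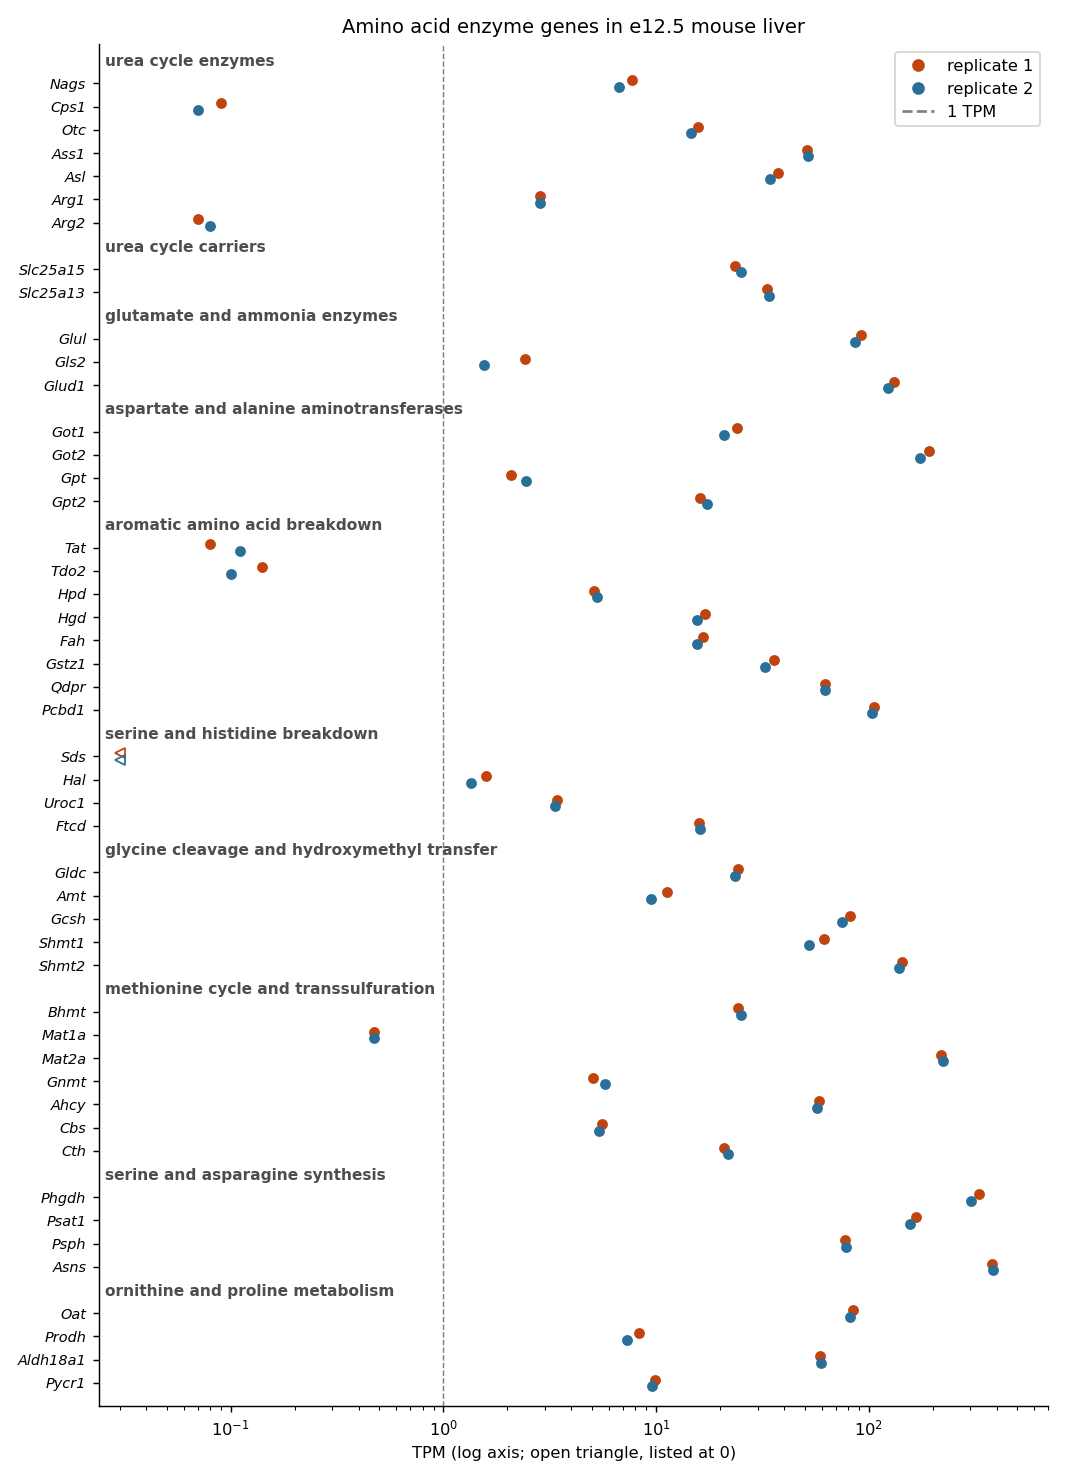
Level of each of the 48 genes in TPM on a log axis, by role, with 1 point for replicate 1 and 1 for replicate 2 and a dashed line at 1 TPM. The genes of serine and asparagine synthesis lie between 77.3 and 385 TPM, whereas Cps1, Arg2, Tat, Tdo2, Sds and Mat1a lie left of the line and Sds is drawn as open triangles because it is listed at 0.

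The promoters of genes from both ends of that range are shown, chosen by level, with their CpG content, a property that goes with level over the genome. They are the 250 bases before the RefSeq start of the gene (GRCm38.p6), 5′ to 3′ on the strand of the gene, for the genes with the lowest and highest levels among those that have a window whose start lies within 100 bases of a GENCODE M21 start. Capitals mark, on either strand, the letters TATAAA of the classical core promoter box, the letters CCAAT, and the letters TGATGNAA, the last being the core of the element that the stress factor ATF4 reads. The window of Tat is chr8:109990186-109990435 on the plus strand, that of Hal chr10:93488518-93488767 on the plus strand, that of Asns chr6:7693210-7693459 on the minus strand and that of Phgdh chr3:98339970-98340219 on the minus strand. The M21 start of Asns lies 45 bases inside its window and that of Phgdh 21 bases, so that these last bases are transcribed in that annotation.
Tat: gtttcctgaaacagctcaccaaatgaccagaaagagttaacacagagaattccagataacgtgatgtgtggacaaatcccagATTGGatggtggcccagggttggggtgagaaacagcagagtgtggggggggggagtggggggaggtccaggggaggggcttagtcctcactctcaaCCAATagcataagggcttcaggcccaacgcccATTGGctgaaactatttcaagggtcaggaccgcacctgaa
Hal: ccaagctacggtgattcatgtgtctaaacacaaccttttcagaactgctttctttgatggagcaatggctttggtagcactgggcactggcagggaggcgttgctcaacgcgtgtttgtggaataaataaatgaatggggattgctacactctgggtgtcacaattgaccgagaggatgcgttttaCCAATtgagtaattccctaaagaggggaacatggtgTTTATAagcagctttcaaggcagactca
Asns: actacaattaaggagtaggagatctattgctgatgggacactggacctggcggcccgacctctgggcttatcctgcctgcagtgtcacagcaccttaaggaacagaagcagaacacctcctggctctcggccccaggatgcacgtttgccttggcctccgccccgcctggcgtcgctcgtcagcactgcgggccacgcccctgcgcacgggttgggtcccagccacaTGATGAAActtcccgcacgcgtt
Phgdh: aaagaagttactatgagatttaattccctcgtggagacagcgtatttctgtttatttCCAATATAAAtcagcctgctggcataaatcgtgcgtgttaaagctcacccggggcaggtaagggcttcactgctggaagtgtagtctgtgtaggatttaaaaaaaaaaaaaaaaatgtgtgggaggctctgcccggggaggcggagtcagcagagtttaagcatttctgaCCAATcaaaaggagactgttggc
Tat, at 0.08 and 0.11 TPM, had 3 CpG in this window, an observed over expected ratio of 0.175. Hal, at 1.58 and 1.35 TPM, had 6 CpG and a ratio of 0.476. Asns had 16 CpG and a ratio of 0.682, and Phgdh had 7 CpG and a ratio of 0.607. The single match in Asns is to TGATGNAA and lies past the M21 start, among the bases that are transcribed in that annotation. Phgdh has 2 matches to CCAAT, the first of which shares 1 base with TATAAA.

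RefSeq windows were matched for 39 of the 48 genes, 42 windows in all. Arg1, Arg2, Asl, Cps1, Cth, Gls2, Gpt, Mat1a and Sds had none in the table used. The median CpG ratio of the 42 windows was 0.604, beside 0.556 over 19931 windows of protein-coding genes. It was 0.637 for the 32 windows of genes at a mean of 10 TPM or more and 0.313 for the 10 windows below. Spearman's rho between CpG ratio and level was 0.638 over the 39 genes and 0.616 over 16316 protein-coding genes. All points share the same libraries, and CpG content moves with base composition. Otc had the lowest ratio among the windows of genes at 10 TPM or more, 0.0843, at 15.8 and 14.6 TPM. CCAAT was found on either strand in 59.5% of the windows, against 35.0% of all protein-coding windows, and TATAAA in 19.0%, against 11.1%. TGATGNAA was found in 3 windows, those of Asns, Got1 and Pycr1, or 7.14%, against 2.92%. A match of letters is a description and shows no binding.

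The urea cycle was present in part, with its cytosolic middle high and its entry and exit low. Ass1 (chr2:31470207-31520672, plus strand), which joins citrulline and aspartate to argininosuccinate, had 51.2 and 52.0 TPM. Asl (chr5:130011258-130029247), which splits argininosuccinate into arginine and fumarate, had 37.3 and 34.2 TPM. Otc (chrX:10252305-10321024, plus strand), which makes citrulline in mitochondria, had 15.8 and 14.6 TPM. These 3 genes drew 958 to 2561 reads per library and stood at percentiles 73.7 to 89.5 of all protein-coding genes by level. Nags, whose product N-acetylglutamate is the obligatory activator of carbamoyl phosphate synthetase, had 7.68 and 6.67 TPM.

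Cps1 (chr1:67123026-67231259, plus strand), carbamoyl phosphate synthetase, the entry step of the cycle and one of the most abundant mitochondrial proteins of the adult liver, had 0.09 TPM from 15 reads and 0.07 TPM from 11 reads. These values lie above the floor of 3 reads, which for this long transcript is 0.0175 and 0.0189 TPM, so a trace was measured in both pools. Otc stood 176-fold above Cps1 in replicate 1 (109 to 325, 95% counting interval) and 208-fold in replicate 2 (117 to 423). The enzymes act on consecutive steps of 1 pathway. Arg1 (chr10:24915221-24927484), the cytosolic arginase that releases urea, had 2.84 TPM in each library, from 123 and 114 reads. Asl stood 13.1-fold above it (11.0 to 15.9) and 12.0-fold (9.95 to 14.7). Arg2 (chr12:79130777-79156301, plus strand), the mitochondrial arginase known mainly from tissues other than liver, had 3 reads in each library, 0.07 and 0.08 TPM, which is at the floor of 0.0717 and 0.0775 TPM. Arg1 exceeded Arg2 by a ratio of 40.6 (13.2 to 195) in replicate 1 and 35.5 (12.2 to 180) in replicate 2. Arg2 also shares 285 exon bases with Vti1b on the opposite strand, a gene at 45.5 and 41.7 TPM, and the strand of the reads is not stated, so its few reads cannot be assigned with certainty.

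Both mitochondrial carriers that serve the cycle were at levels like those of its middle enzymes. Slc25a15, which brings ornithine into mitochondria in exchange for citrulline, had 23.6 and 25.1 TPM. Slc25a13, citrin, the liver-type aspartate and glutamate carrier, had 33.1 and 34.2 TPM. It exceeded its relative Slc25a12, which is better known from muscle and brain, by 1.22-fold (1.15 to 1.29) and 1.26-fold (1.19 to 1.34) in gene TPM. Most of the TPM of Slc25a12 was outside models annotated as protein-coding. Over protein-coding transcripts alone Slc25a13 exceeded it 17.0-fold and 17.5-fold, with Slc25a12 at 1.94 and 1.95 TPM. Slc25a2, another ornithine carrier, had 0.18 and 0.22 TPM.

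Ammonia can also be fixed in glutamate or glutamine. Of the 3 enzymes that do this or reverse it, 2 were above every urea cycle enzyme in gene TPM and 1 was low. Glud1, glutamate dehydrogenase, had 131 and 123 TPM, and Glul, glutamine synthetase, had 91.7 and 85.8 TPM. Of the level of Glul, 51.4 and 50.9 TPM were in the short coding model Glul-202. The longer coding model Glul-201, with 66.3% and 65.8% of the reads, had 25.1 and 23.6 TPM, below Ass1 and Asl. The place of Glul above these enzymes thus rests on its short models. Gls2, the liver-type glutaminase, had 2.43 and 1.56 TPM from 108 and 77 reads.

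Among the aminotransferases the mitochondrial form was the higher one in both pairs. Got2, mitochondrial aspartate aminotransferase, had 192 and 174 TPM, and Got1, the cytosolic form, had 24.0 and 20.8 TPM. Got2 exceeded Got1 by 7.98-fold (7.56 to 8.44) and 8.38-fold (7.89 to 8.90). Gpt2, mitochondrial alanine aminotransferase, had 16.1 and 17.4 TPM, whereas Gpt, the cytosolic form that is the usual serum marker of liver damage, had 2.08 and 2.45 TPM. The ratio was 7.73 (6.36 to 9.47) and 7.11 (5.89 to 8.63).

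**Figure D2:**
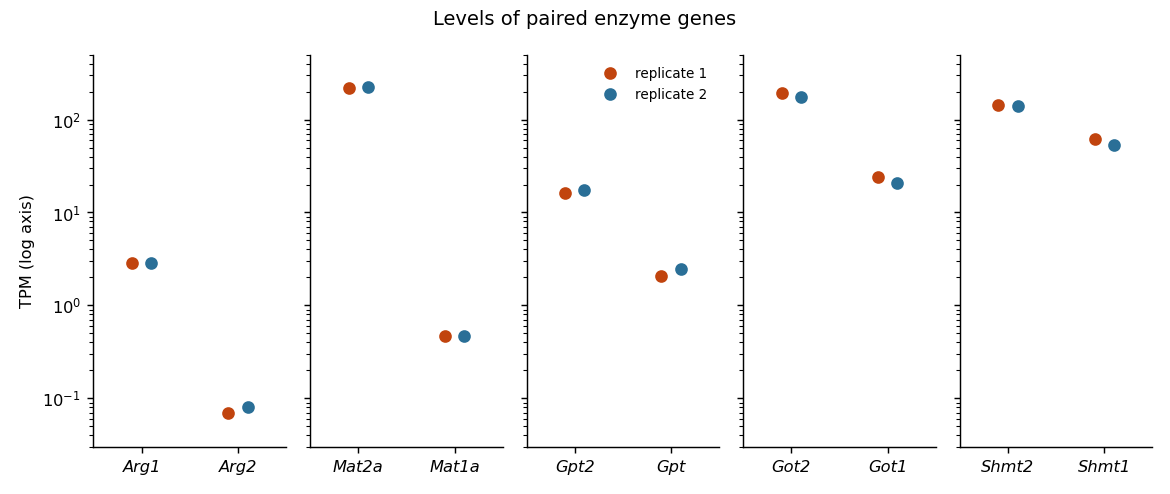
Levels in TPM on a log axis for 5 pairs of genes for the same reaction, the higher gene on the left of each panel, with 1 point for each library. Mat2a and Mat1a are farthest apart, at 219 and 223 TPM against 0.47 TPM in each library, and Shmt2 and Shmt1 are closest, at 144 and 139 TPM against 61.8 and 52.6 TPM.

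In aromatic amino acid breakdown, the enzymes that open each pathway had at most 15 reads while the steps after them were present. Tat (chr8:109990437-109999803, plus strand), tyrosine aminotransferase, the glucocorticoid-induced first step of tyrosine breakdown that comes on around birth in rodents, had 6 and 7 reads. Tdo2 (chr3:81957090-81976202, minus strand), tryptophan dioxygenase, had 0.14 TPM from 15 reads and 0.10 TPM from 4 reads.

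In tyrosine breakdown the level was higher at each later step up to maleylacetoacetate isomerase. Hpd, the dioxygenase that follows Tat, had 5.12 and 5.29 TPM. Hgd, homogentisate dioxygenase, had 17.1 and 15.5 TPM, and Gstz1, maleylacetoacetate isomerase, had 36.0 and 32.4 TPM. Fah, the last step, whose loss causes tyrosinemia type I in humans, had 16.7 and 15.5 TPM, a range that overlaps that of Hgd. Qdpr and Pcbd1, which regenerate the cofactor tetrahydrobiopterin, were the highest of the group at 62.4 and 62.1 TPM and at 106 and 103 TPM.

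Serine and histidine breakdown was low. Sds (chr5:120476526-120483932, plus strand), serine dehydratase, which feeds serine carbons into gluconeogenesis, had no read in either library. That allows up to 0.155 and 0.167 TPM at a floor of 3 reads. Hal, histidase, had 1.58 and 1.35 TPM from 58 and 46 reads, and Uroc1, urocanase, had 3.42 and 3.35 TPM. Ftcd, which passes the formimino group of histidine to folate, was higher, at 15.9 and 16.1 TPM. The order of levels thus followed the order of the steps, Hal below Uroc1 below Ftcd, in both libraries. Amdhd1, the step between Uroc1 and Ftcd and not among the 48 genes, had 5.97 and 5.50 TPM, and lay between them.

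The glycine cleavage system and the hydroxymethyltransferases, which exchange serine, glycine and one-carbon units, were all detected. Shmt2, the mitochondrial enzyme, had 144 and 139 TPM, and Shmt1, the cytosolic one, had 61.8 and 52.6 TPM. Shmt2 exceeded Shmt1 by 2.33-fold (2.24 to 2.41) and 2.64-fold (2.53 to 2.74). Of the glycine cleavage proteins, Gcsh, the lipoyl carrier H protein, had 81.3 and 74.7 TPM, Gldc, the decarboxylase, had 24.3 and 23.6 TPM, and Amt, the aminomethyltransferase, had 11.3 and 9.47 TPM. The H protein thus stood 3.34-fold (3.18 to 3.51) and 3.16-fold (3.00 to 3.34) above the decarboxylase. Dld, the fourth component, which other dehydrogenase complexes share, had 108 and 106 TPM.

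In the methionine cycle the general synthetase gene was high and the liver-type gene low. Mat2a (chr6:72432799-72439558, minus strand), the S-adenosylmethionine synthetase of most tissues and of dividing cells, had 219 and 223 TPM. Mat1a (chr14:41105035-41124412), the synthetase of adult hepatocytes, had 0.47 TPM in each library, from 46 and 43 reads. Mat2a exceeded Mat1a 466-fold (349 to 636) in replicate 1 and 475-fold (349 to 649) in replicate 2, the widest gap among the isozyme pairs examined. Mat2b, the regulatory partner of the Mat2a protein, had 56.4 and 57.1 TPM. Ahcy, which removes S-adenosylhomocysteine, had 58.7 and 57.3 TPM. Gnmt, the glycine methyltransferase that uses up excess S-adenosylmethionine in adult liver, had 5.04 and 5.74 TPM.

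Homocysteine can be remethylated or passed on to cysteine, and genes of both routes were present. Bhmt, the betaine-dependent methyltransferase, had 24.3 and 25.2 TPM, its neighbour in function Bhmt2 had 10.7 and 11.1 TPM, and Mtr, the cobalamin-dependent methionine synthase, had 11.1 and 9.89 TPM. In transsulfuration Cbs, the first step, had 5.58 and 5.40 TPM and Cth, the second, had 20.8 and 21.8 TPM.

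Genes for making serine and asparagine were the highest group. Asns (chr6:7675169-7693254, minus strand), asparagine synthetase, had 380 and 385 TPM from 20030 and 18647 reads and was the highest of the 48, at rank 254 of all protein-coding genes. Phgdh (chr3:98313170-98339990, minus strand), the first step of serine synthesis from a glycolytic intermediate, had 331 and 302 TPM. Psat1, the second step, had 167 and 156 TPM, and Psph, the last, had 77.3 and 78.6 TPM. Levels were thus lower at each later step of the serine pathway, in both libraries. These 4 genes held 955 and 921 TPM, or 35.8% and 35.9% of the sum of all 48. Psph shares 452 exon bases with Cct6a on the opposite strand, a gene at 344 and 332 TPM, so its level may include reads of that gene.

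Ornithine and proline metabolism had 2 genes above and 2 below 10 TPM. Oat, ornithine aminotransferase, had 84.1 and 81.8 TPM and stood 29.6-fold (24.8 to 35.7) and 28.8-fold (23.9 to 35.0) above Arg1, which makes the ornithine that Oat uses. Aldh18a1, which makes pyrroline-5-carboxylate from glutamate, had 58.7 and 59.9 TPM. Pycr1, a mitochondrial reductase that completes proline, had 9.84 and 9.54 TPM. Its relative Pycr3, listed under its older symbol Pycrl, had 50.1 and 47.6 TPM. Prodh, proline dehydrogenase, had 8.33 and 7.31 TPM, below Prodh2, which breaks down hydroxyproline, at 19.4 and 18.3 TPM.

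Related pathways outside the 48 genes also ranged widely. Of 20 counterparts of the 48 genes, 18 were at 1 TPM or more and the median was 13.3 TPM, with Dld and Mat2b among the highest and Sdsl, at 0.93 TPM in each library, and Slc25a2 lowest. Of 8 genes from tryptophan to kynurenine and nicotinamide, 5 were detected, and the median was 3.87 TPM. Qprt, which makes nicotinate mononucleotide, had 35.1 and 31.7 TPM, Acmsd had 7.38 and 7.32 TPM and Afmid, which follows Tdo2, had 5.83 and 5.86 TPM. Protein-coding transcripts held 0.23 and 0.16 TPM of the level of Acmsd and 3.64 and 4.29 TPM of that of Afmid. Ido1 and Ido2, the other tryptophan dioxygenases, had at most 2 reads in replicate 1 and none in replicate 2, so that Tdo2, low as it was, had more reads than both. Of 12 genes of branched-chain and lysine breakdown, 11 were detected, with a median of 19.2 TPM. Hibadh had 59.2 and 58.6 TPM, Bcat2, the mitochondrial branched-chain aminotransferase, 46.8 and 41.7 TPM, and Auh 25.2 and 27.5 TPM, with Dbt at 9.27 and 9.66 TPM and Bcat1 at 0.80 and 1.3 TPM lowest.

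Uptake and polyamine genes had the highest medians of the related lists. Of 14 amino acid transporters, 13 were detected, with a median of 43.2 TPM. Slc43a1, a transporter of large neutral amino acids, had 133 and 140 TPM, Slc1a5, which carries glutamine, had 110 and 111 TPM, and Slc3a2, the heavy chain of several exchangers, had 76.9 and 72.6 TPM. Protein-coding transcripts held 32.3 and 32.8 TPM of the level of Slc1a5. Slc38a3, the glutamine carrier of adult liver, had 2.83 and 2.44 TPM, and Slc7a11, the cystine exchanger, had 0.17 and 0.31 TPM, of which 0.11 and 0.19 TPM were in protein-coding transcripts. All 6 genes of polyamine synthesis and its control were detected, with a median of 204 TPM. This synthesis starts from ornithine. Oaz1, antizyme, a control protein and not an enzyme of the pathway, had 1591 and 1487 TPM. Odc1, ornithine decarboxylase, had 428 and 418 TPM, and Srm, spermidine synthase, 337 and 311 TPM. Amd1 at 76.5 and 71.6 TPM and Sms at 26.7 and 28.6 TPM were lowest. Protein-coding transcripts held 9.02 and 7.66 TPM of the level of Sms.

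Regulators of these enzymes were measured as well. Of 10 genes of the amino acid stress response, 9 were detected, with a median of 7.82 TPM. Atf4, the factor that induces ASNS and PHGDH in human cells short of amino acids, had 121 and 125 TPM, Eif4ebp1 had 111 and 103 TPM, and Eif2ak1, the heme-sensing kinase of erythroid cells, 95.2 and 95.5 TPM. Atf3 had 1.97 and 2.06 TPM and Chac1 0.89 and 1.21 TPM. All 10 regulators of liver enzyme genes were detected (median 8.79 TPM). Cebpb had 19.0 and 20.3 TPM, Nr3c1, the glucocorticoid receptor, 19.4 and 19.5 TPM, and Creb1 18.2 and 16.8 TPM, while Ppargc1a had 2.00 and 2.01 TPM, of which 0.51 and 0.68 TPM were in protein-coding transcripts.

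**Figure D3:**
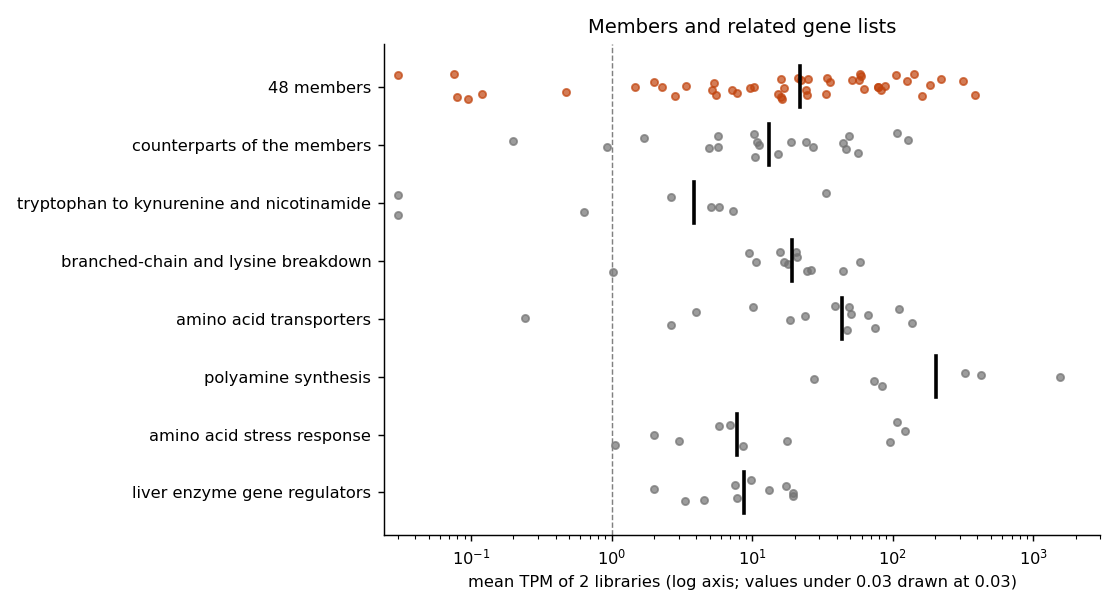
Mean TPM of both libraries on a log axis for the 48 genes and 7 related lists, with 1 point for each gene, jittered up and down for legibility, a black bar at each median and a dashed line at 1 TPM. The median is 21.9 TPM for the 48 genes, 204 TPM for polyamine synthesis and 3.87 TPM for the tryptophan pathway.

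The pools differed little in these genes. A total of 42 of the 48 had a mean of at least 50 reads. Of these, 30 lay within 1.1-fold between the pools, 71.4%, beside 67.8% of all genes with that many reads. Replicate 1 was the higher for 27 and the lower for 14, and the 27 are 64.3% of the 42, beside 52.1% of all genes. The 42 had a median log2 ratio of TPM, replicate 1 over replicate 2, of 0.04, beside 0.01 for all genes. A ratio of 25% or more above the lower library was seen in 1 of 42, against 8.68% of all genes in either direction. That gene was higher in replicate 1, against 3.76% of all genes, and 0 of 42 were lower by as much, against 4.92%. None reached 2-fold, against 0.361%. The 95% counting interval of the ratio left out 1 for 16 of the 42 genes, 38.1%, against 30.9% of all genes. Of these, 14 were higher in replicate 1, against 16.3% of all genes, with Nags at the margin, since its lower bound rounds to 1.00. The other 2, Slc25a15 and Gpt2, were lower, against 14.6%. Among the 14, Phgdh had 331 TPM against 302 TPM and Got2 192 TPM against 174 TPM, with 12340 to 18671 reads per library behind these values. With 1 pool per library these differences belong to the libraries, and no test of them is possible.

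The gene past that limit was Gls2, with 2.43 TPM in replicate 1, against 1.56 TPM in replicate 2, a ratio of 1.56 (1.15 to 2.11). Its transcript mix differed between the libraries, and with it the length by which reads are scaled. Taken as reads scaled to the library total, with 1 length for both libraries, a comparison chosen after its values were seen, the ratio was 1.29 (0.957 to 1.76), and the interval then included 1. Tdo2, with fewer reads, also had unlike ratios on these scales. Its ratio of TPM was 1.43 (0.456 to 5.93) and that of scaled reads 3.46 (1.10 to 14.3), and the leading transcript was Tdo2-201 in replicate 1 and the shorter Tdo2-204 in replicate 2. When the libraries were scaled to the spike-ins instead of to total TPM, all genes moved up by 0.12 on the log2 scale in replicate 1, and 39 of the 42 genes were then higher in replicate 1 and 3 lower. The direction of these small differences thus depends on the scaling.

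**Figure D4:**
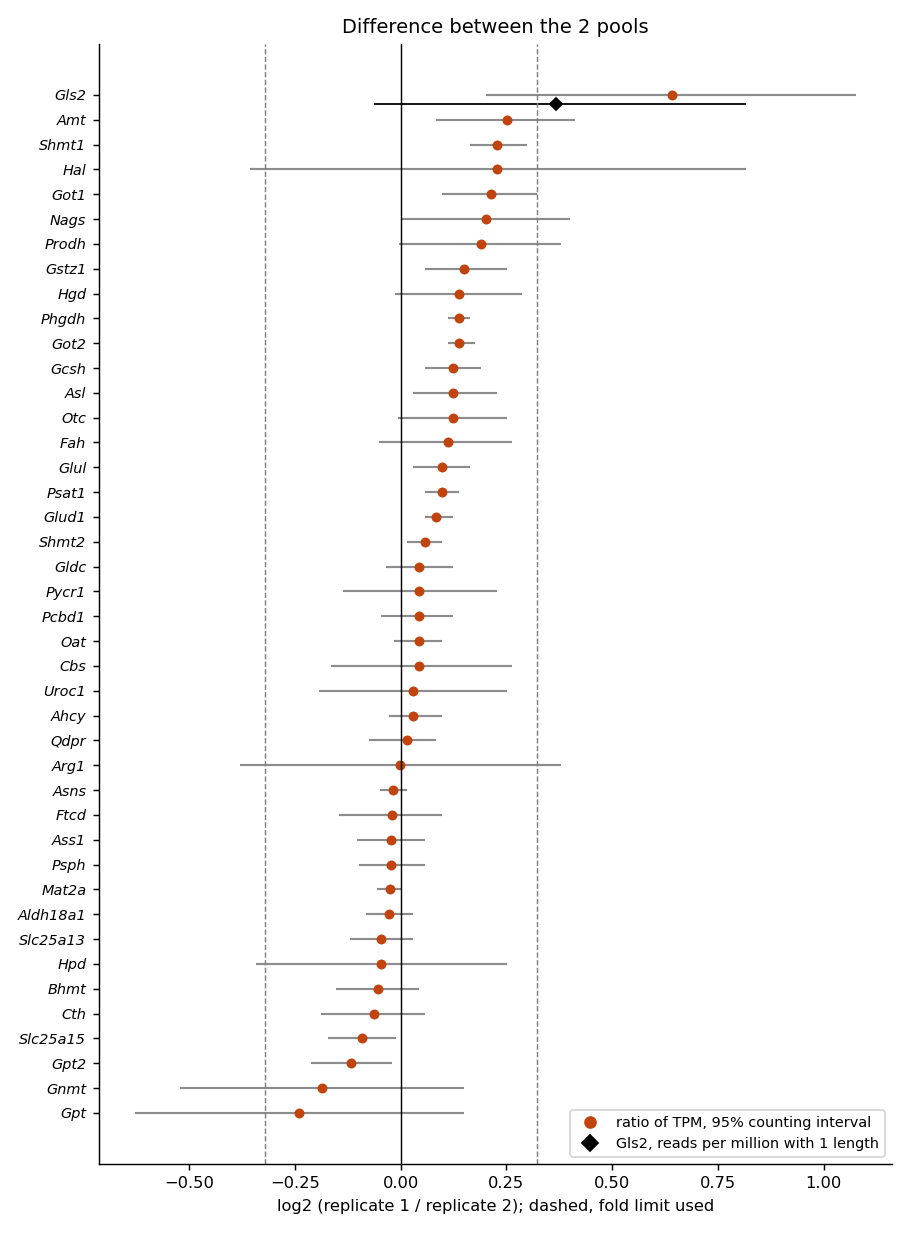
Ratio of TPM in replicate 1 over replicate 2 on a log2 axis for the 42 genes with a mean of at least 50 reads, with 95% counting intervals as bars and dashed lines where 1 library is 25% above the other. Gls2 alone lies outside the lines, at 1.56, and its black diamond, the ratio of reads scaled to the library total with 1 length, is at 1.29 with an interval that reaches across the line of no difference.

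Transcript models told where a gene's level came from. A total of 12 of the 48 genes have 1 annotated transcript. Of the 30 genes with several and at least 5 TPM, 16 had a leading transcript with 90% or more of the TPM in both libraries, 0 led with a type other than protein-coding and 0 changed their lead. In 2 genes the leading transcript held less than 50% in at least 1 library. Asl-205 held 50.6% of the TPM of Asl in replicate 1 and 44.3% in replicate 2, followed by Asl-202 at 19.6% and 30.7%. Prodh-201 held 41.7% and 57.7% of Prodh. These 3 models are protein-coding.

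Models with a retained intron held at least 5% of the TPM in both libraries in 4 of the 30 genes, against 31.7% of protein-coding genes chosen the same way. Ftcd had the most, with 33.1% and 34.7% in Ftcd-202, which drew 465 and 458 reads. Shmt1 had 28.3% and 23.8%, Hgd 8.31% and 6.65%, and Psat1 5.33% and 5.10%. Where such a model is short, its share of TPM exceeds its share of reads. In Shmt1, Shmt1-205 held 15.9% and 11.5% of the TPM with 3.53% and 2.46% of the reads. The same was seen in Asns, where the processed transcript Asns-206 held 14.1% and 14.9% of the TPM with 2.93% and 3.12% of the reads, and in Glul, where the short coding model Glul-202 held 56.1% and 59.3% of the TPM with 29.4% and 30.7% of the reads. In Nags, processed transcripts held 28.3% and 40.5% of the TPM.

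At lower levels, between 1 and 5 TPM, models other than protein-coding led in 2 genes. Hal-204, a processed transcript, held 76.7% and 77.8% of the TPM of Hal, and coding models 6.29% and 2.22%, on 16 and 5 reads. Gls2-201, a coding model, led Gls2 with 25.0% in replicate 1 and had 0.645% in replicate 2, where Gls2-207, a retained intron, led with 41.9%. These splits rest on few reads, 47 and 1 for Gls2-201, and Gls2 shares 97 exon bases with Spryd4 on the opposite strand, at 21.86 and 20.95 TPM. With coding models alone, Hal had 0.10 and 0.03 TPM and Gls2 0.81 and 0.01 TPM.

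**Figure D5:**
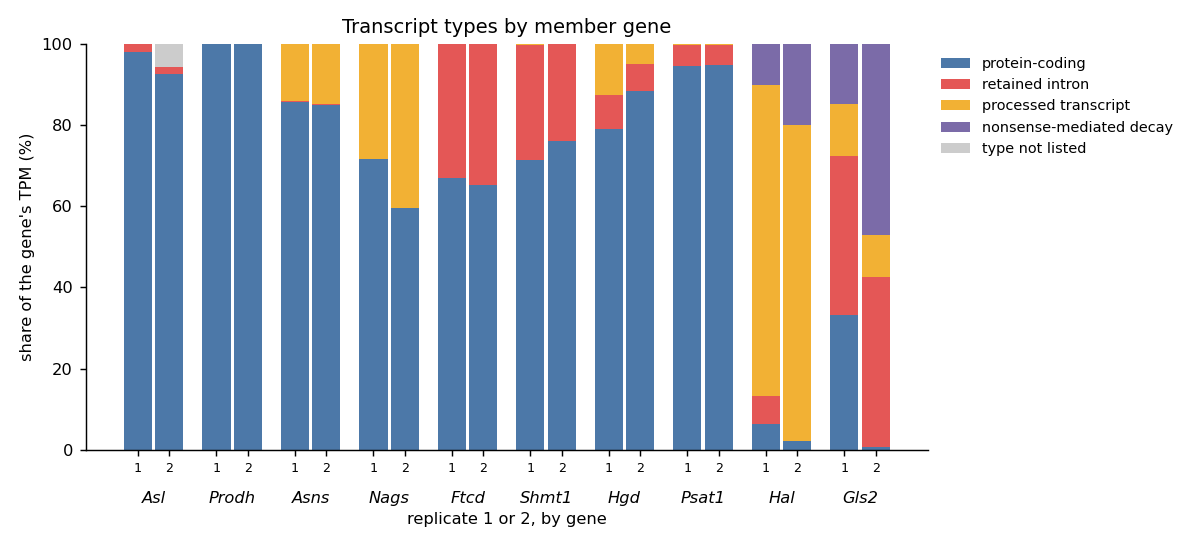
Share of each gene's TPM in percent by transcript type for 10 genes, with replicate 1 as the left and replicate 2 as the right bar of each pair. Asl, Prodh and Psat1 are mostly protein-coding, Ftcd and Shmt1 carry retained-intron shares of 33.1% and 28.3% in replicate 1, and in Hal and Gls2 the types other than protein-coding take most of the level.

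Near-identical copies can draw reads from a gene. Stretches of at least 100 bases at 95% identity or more with another annotated gene were found for 18 of the 48, and for 6, Ahcy, Ass1, Bhmt, Glul, Got2 and Phgdh, the stretch to a listed copy was at least 1000 bases. The highest of those copies was Gm7901, a copy of Phgdh, at 2.95 and 1.75 TPM, and Gm4737, a copy of Ahcy, had 2.02 and 1.59 TPM. Reads could be divided between these genes and their copies, and the levels of these 6 genes are uncertain to that extent. Exons of 10 of the 48 overlap those of a gene on the other strand that is in the tables. The posterior standard deviation of the count, the quantifier's own measure of how well reads could be assigned, was 0 for 33 of the 42 genes with at least 50 reads in replicate 1 and above 1% of the count for 1, Nags, at 1.12% and 0.939%.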

How the data were processed

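Liver total RNA of embryos at embryonic day 12.5 was measured in 2 libraries. Per the labels' protocols, extraction used the Ambion mirVana kit, and 10 ng of RNA of a size above 200 went into each library with control spike-ins. A SMARTer low-input kit manual is linked, and strandedness is not given. The aligner and quantifier: not given in the sources used here. Per the file headers, the tables were made on assembly mm10 with annotation M4. The expected counts are the authors' estimated reads per gene or transcript and are not normalized. The deposited TPM values scale them by length and to a fixed total per library, and the deposited FPKM values scale them by length and depth. Expected counts summed to 37.6 M for replicate 1 and to 34.7 M for replicate 2, so 3 reads over 1 kb correspond to 0.0953 and 0.103 TPM. Spike-ins took 2.94% and 3.19% of the counts, and entries that name neither a mouse gene nor a spike-in took 0.000142% and 0.000127%.

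All 48 genes were matched by gene identifier and all are named. Of related lists the 3 highest and 2 lowest genes are named, and of marker lists the 2 highest, except that some genes of the related lists are not reported here by name. Transcript types and coordinates, 1-based, came from GENCODE M21 on mm10, and promoters from RefSeq (GRCm38.p6). A gene was detected at 1 TPM or more in both libraries. Pools were compared by log2 ratios of TPM after adding 0.1, which understates ratios of low genes, for genes with a mean of at least 50 reads. Intervals are exact 95% Clopper-Pearson intervals, and like the floor of 3 reads they cover counting error only. With 1 group there are no conditions to test, and no p-value is given. The interval procedure was run on simulated counts that held counting error only. Exact intervals cover by construction in that setting, so the run checks the calculation and not how the intervals perform on these libraries. Alternatives used edgeR 4.0.16 and DESeq2 1.42.0 in R 4.3.3 for scaling only, and copies were searched with BLAST 2.17.0. The genes and lists were chosen with earlier results of these data known. Ratios outside the 5 isozyme pairs, the 1.1-fold and 5% retained-intron limits and the search for copies were chosen after values had been seen.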

Additional observations from a re-analysis of the deposited data

How the results depend on the processing

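With protein-coding transcripts only, the levels of 12 single genes moved by more than the spread between the libraries and those of 36 did not. Leaving out globin genes and spike-ins rescaled all genes by 1 factor per library, 1.444 for replicate 1 and 1.466 for replicate 2. The 47 genes above 0 all moved upward, a direction that this rescaling fixes in advance. The number of genes detected was 42 at 0.5 TPM, 37 at 5 TPM and 40 with protein-coding transcripts only, against 42 as reported. The median level of the 48 genes, 21.9 TPM, was 31.8 TPM after globin genes and spike-ins were left out of the total, 20.8 TPM with protein-coding transcripts only, and 24.2 TPM over genes with a mean of at least 10 reads. It ranged from 21.3 to 22.2 TPM when either library was left out. The median log2 ratio between the pools was 0.157 with spike-in scaling, and from 0.038 to 0.043 with TMM, DESeq2 size factors or pseudocounts of 0.01 and 1. With spike-in scaling 4 genes had 1 library at least 25% above the other, Gls2, Got1, Amt and Shmt1, and with a mean of at least 200 reads 0 did, since Gls2 has fewer. With protein-coding transcripts only, Got2 exceeded Got1 8.52-fold and Shmt2 exceeded Shmt1 3.36-fold. Taking genes from 1 TPM up, 2 led with a transcript that is not protein-coding, Hal and Gls2. Leaving out a library gave 0.0246 to 0.0282 for Arg2 over Arg1, 466 to 475 for Mat2a over Mat1a, 7.11 to 7.73 for Gpt2 over Gpt, 7.98 to 8.38 for Got2 over Got1 and 2.33 to 2.64 for Shmt2 over Shmt1. The relation of CpG ratio to level had a rho of 0.697 over the whole promoter window. Depth limits Cps1, Arg2, Tat, Tdo2 and Sds, each at 15 reads or fewer. No paired analysis was possible because the study has 1 group.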
